A study of Mus musculus with 85 samples.

Results

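The genes described here are Wnt7a and Wnt7b, 3 parts of their receptor complex on brain vessels (Fzd4, Lrp5 and Reck) and 4 genes that act at or below the end of the pathway (Lef1, Axin2, Apcdd1 and Nkd1). They were chosen by name, through the gene symbol that the deposited tables pair with each Ensembl identifier, and are 9 of the 47941 genes with a symbol in the series. The study deleted Mof, Kansl2 or Kansl3, which encode members of the NSL (non-specific lethal) histone acetyltransferase complex, in the developing mouse nervous system with a Cre recombinase under the Nestin promoter (nKO). It set each knockout beside controls labelled as Cre control, and the labels give no further alleles. RNA was sequenced from whole brains and from neural cells, endothelial cells, pericytes and microglia sorted from brain by FACS, all at embryonic stage E14.5, with microglia for the Mof nKO and Cre groups alone. Pericytes from adult wild-type brain, grown in culture, received either a mixture of myristic acid (200 µM), palmitic acid (200 µM), arachidic acid (20 µM) and lignoceric acid (10 µM) bound to albumin, or a vehicle of ethanol and albumin. The 64 RNA libraries form 20 groups of 3 or 4, and 21 further samples of the 85 in the series are chromatin immunoprecipitations, which were not analysed here. Nestin-Cre acts in neural progenitors and their progeny, so endothelial cells, pericytes and microglia are populations in which the driver is not thought to delete the genes. The labels do not say which libraries came from separate animals, so each p-value measures the spread between these libraries, which may be technical.

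Wnt7a and Wnt7b are secreted ligands made by neural progenitors and neurons of the embryonic brain. They act on endothelial cells that grow into the neural tube, where Reck, a membrane-anchored protein that recognises Wnt7, and the adhesion receptor Adgra2 (Gpr124) bring the ligand to a Frizzled receptor and to Lrp5 or Lrp6. The signal stabilises beta-catenin, which enters the nucleus and acts with Lef1 and related factors, and it is known for directing vessel ingrowth and the blood-brain barrier.

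The targeted genes checked the labels only in part. Kat8, the gene for Mof, was lower in all 3 knockouts, by -0.94 (log2, Mof nKO, adjusted p = 0.00234), -0.64 and -0.89 (Kansl2 and Kansl3 nKO) in whole brain and by -1.42, -0.57 and -1.16 in neural cells. Kansl2 was not lower in the libraries labelled Kansl2 nKO (log2 0.46, adjusted p = 0.00357, in whole brain and 0.09, adjusted p = 0.491, in neural cells). Kansl3 was not lower in those labelled Kansl3 nKO (0.28, adjusted p = 0.0602, and 0.28, adjusted p = 0.00542). A total over a gene can keep reads from outside a deleted part, so these totals do not check the Kansl2 and Kansl3 labels, and Kansl2 nKO and Kansl3 nKO below mean the libraries labelled so. Single libraries carry the names of the labels, where M or Mof, K2 and K3 stand for the 3 knockouts. Read totals limit the low values: a whole-brain library held 8444551 to 12641817 reads and a neural one 5687012 to 12665665. Endothelial libraries held 10048082 to 25260285, pericyte libraries only 1572515 to 5852542, those of microglia 2215701 to 9817084 and cultured ones 42623429 to 51854152. Endothelial libraries held the 9 endothelial markers at a summed 5438 to 8824 CPM (the counts-per-million scale), and Cre pericyte libraries the 9 pericyte markers at 10461 to 13543 CPM. In neural libraries the ribosomal RNA gene Rn18s-rs5 took 15.4% to 28.7% of reads in Cre, 20.5% to 39.3% in Mof nKO, 10.2% to 37.1% in Kansl2 nKO and 10.7% to 12.3% in Kansl3 nKO, which touches any scaling by total reads.

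In GRCm38 coordinates the ligand genes lie at chr6:91363981-91411353 (Wnt7a, ENSMUSG00000030093) and chr15:85535437-85581821 (Wnt7b, ENSMUSG00000022382), and the receptor genes at chr7:89404366-89410110 (Fzd4, ENSMUSG00000049791), chr19:3584825-3686585 (Lrp5, ENSMUSG00000024913) and chr4:43875521-43944806 (Reck, ENSMUSG00000028476). Lef1 (ENSMUSG00000027985) lies at chr3:131110297-131224357, Axin2 (ENSMUSG00000000142) at chr11:108917828-108950783 and Nkd1 (ENSMUSG00000031661) at chr8:88521342-88594887, and Apcdd1 is ENSMUSG00000071847. Wnt7a, Wnt7b, Fzd4 and Lrp5 overlap Gm30437, AU022754, Tmem135 and Gm36672 at one end. Whether counting used strand is not given in the sources used here, so reads in those stretches are uncertain.

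The letters before the start site are shown for Wnt7a, whose transcript was lower in all 3 neural knockouts, and for Lef1, Axin2 and Nkd1, which were higher in the Kansl3 nKO neural libraries. Each is the 250 bases upstream of a RefSeq start site in the mouse build GRCm38.p6, read 5′ to 3′ on the strand of the gene. The windows are Wnt7a at chr6:91411354-91411603 (minus strand), Lef1 at chr3:131156044-131156293 (plus strand, the fourth of 4 RefSeq starts, inside the gene), Axin2 at chr11:108920099-108920348 (plus strand) and Nkd1 at chr8:88527383-88527632 (plus strand). By the gene spans given above, the Axin2 and Nkd1 windows also lie inside the gene and not upstream of its outermost end. Capitals mark CTTTGA or CTTTGT, the core letters of the TCF/LEF motif, searched on both strands.
Wnt7a: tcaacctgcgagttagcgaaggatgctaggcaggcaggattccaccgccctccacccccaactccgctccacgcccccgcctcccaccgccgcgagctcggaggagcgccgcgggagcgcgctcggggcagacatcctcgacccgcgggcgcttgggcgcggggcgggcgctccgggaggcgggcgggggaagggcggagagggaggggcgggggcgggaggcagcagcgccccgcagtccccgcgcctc
Lef1: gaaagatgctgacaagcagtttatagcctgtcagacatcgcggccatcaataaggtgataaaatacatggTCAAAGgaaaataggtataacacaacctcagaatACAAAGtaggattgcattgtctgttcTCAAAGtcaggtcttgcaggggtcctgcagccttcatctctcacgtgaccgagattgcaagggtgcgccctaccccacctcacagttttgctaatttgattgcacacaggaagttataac
Axin2: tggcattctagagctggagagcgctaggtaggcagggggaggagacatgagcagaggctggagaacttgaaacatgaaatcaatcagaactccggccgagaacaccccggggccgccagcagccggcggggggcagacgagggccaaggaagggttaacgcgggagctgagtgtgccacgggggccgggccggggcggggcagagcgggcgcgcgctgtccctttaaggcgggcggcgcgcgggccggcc
Nkd1: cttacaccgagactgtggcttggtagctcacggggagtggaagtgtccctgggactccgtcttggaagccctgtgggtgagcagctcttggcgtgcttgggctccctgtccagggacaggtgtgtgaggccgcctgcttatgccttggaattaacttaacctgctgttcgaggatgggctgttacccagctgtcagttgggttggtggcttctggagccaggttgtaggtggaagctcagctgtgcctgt
The Lef1 window shown had 3 matches and the windows of Wnt7a, Axin2 and Nkd1 had none. Of the 32851 windows of this length in the table, 27.6% held at least 1 match and 0.776% held 3 or more. These shares are for single windows. The Lef1 window shown is the only 1 of its 4 with a match, so the shares do not tell how rare it is. The other 3 Lef1 starts and Fzd4 had no match, and Reck had 1 start with a match; 6 of the 9 genes had an entry, and Wnt7b, Lrp5 and Apcdd1 had none. A match describes letters and shows no binding.

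In Cre libraries the ligands were highest in neural cells or whole brain, while Fzd4, Reck, Lef1, Apcdd1 and Nkd1, 5 of the 9 genes, had their highest mean among sorted populations in endothelial cells. Wnt7b had a mean of 109.6 ± 7.62 CPM (SD, n = 3) in neural cells, 72.7 ± 11.5 (n = 3) in whole brain, 42.7 ± 16.6 (n = 4) in pericytes and 18.1 ± 16.5 (n = 4) in endothelial cells. Wnt7a stood at 21.2 ± 2.74 CPM in whole brain, 20.4 ± 0.181 in neural cells and 11.6 ± 3.02 in pericytes, and no read of it was found in the 4 endothelial Cre libraries. Whole brain and neural cells did not differ beyond their spread for Wnt7a, and neither did pericytes and endothelial cells for Wnt7b.
Lef1 had 390 ± 79.8 CPM in endothelial cells, 53.3 ± 5.73 in pericytes, 37.6 ± 8.81 in whole brain and 15.7 ± 1.63 in neural cells. Apcdd1 had 963 ± 254 CPM in endothelial cells against 79.6 ± 2.98 in neural cells, and Nkd1 had 407 ± 107 against 67.5 ± 23.1 in pericytes and 29.1 ± 2.190 in neural cells. Fzd4 had 94.4 ± 34.3 CPM in endothelial cells, 8.22 ± 6.14 in pericytes and 3.47 ± 0.752 in neural cells. These 4 genes thus lay well above every other population in endothelial cells.
Axin2, a scaffold of the complex that destroys beta-catenin and a widely used readout of the pathway, had another order, with 100.02 ± 15.005 CPM in pericytes, 48.3 ± 2.59 in whole brain, 48.0 ± 5.45 in neural cells and 10.0 ± 2.58 in endothelial cells. Reck had 31.5 ± 31.9 CPM in endothelial cells, where 1 library of 4 carried most of it, and 15.4 ± 4.01 in pericytes. Lrp5 had 26.3 ± 6.34, 25.8 ± 2.213 and 24.8 ± 3.20 CPM in microglia, pericytes and neural cells, within their spread, and 10.49 ± 9.43 in endothelial cells. Sorted endothelial cells, pericytes and microglia were made into libraries with another kit than whole brain and neural cells, so these levels across populations are a description with no test. CPM is not corrected for gene length, so levels are compared only within a gene.

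**Figure D1:**
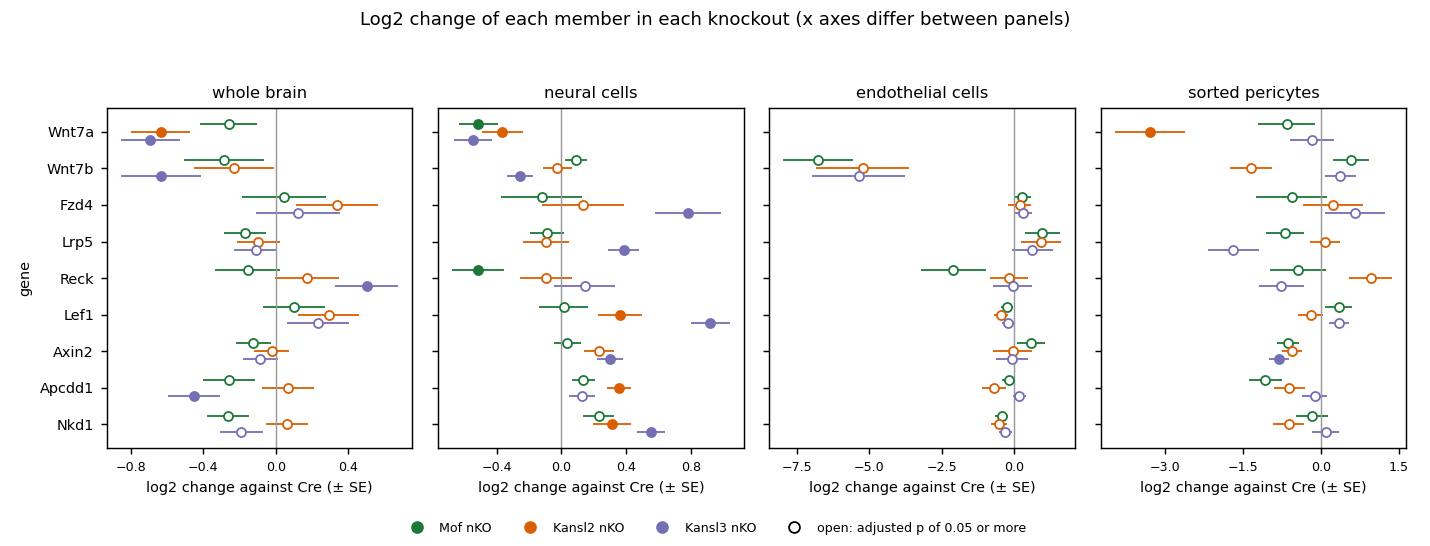
Log2 change of each gene (± SE) in the libraries labelled Mof, Kansl2 and Kansl3 nKO against Cre in 4 populations, with filled points where the adjusted p was under 0.05 and a separate x axis for each panel. Wnt7a lies to the left in whole brain and neural cells, Lef1 and Nkd1 lie to the right in Kansl3 nKO neural cells, and no endothelial point is filled.

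Wnt7a fell in neural cells of all 3 knockouts, and Wnt7b fell in the Kansl3 nKO libraries. In neural cells, Wnt7a stood at 162, 190.4 and 177 scaled reads in the Cre libraries, 122, 129 and 112 in Mof nKO, 148.95, 123 and 139.09 in Kansl2 nKO and 121, 133 and 109.8 in Kansl3 nKO. These are reads divided by size factors on 1 scale for the 12 libraries. All 9 knockout libraries lay below all 3 controls. The knockouts share these controls, and how many of all genes separate in this way was not counted. The log2 change was -0.51 ± 0.12 (SE, adjusted p = 0.00274, limma over all genes) in Mof nKO, -0.37 ± 0.13 (adjusted p = 0.0286) in Kansl2 nKO and -0.55 ± 0.12 (adjusted p = 0.00112) in Kansl3 nKO.
The Mof and Kansl3 nKO changes of Wnt7a passed without each library in turn. The Kansl2 nKO change did not pass without library Cre184 (adjusted p = 0.133), library Cre188 (0.0832) or library K2_348 (0.0882), nor under total-count scaling (log2 -0.55, adjusted p = 0.0687).

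Wnt7b in neural cells stood at 887, 948 and 1000 scaled reads in Cre, 937, 1027 and 1005 in Mof nKO, 1032, 807 and 962 in Kansl2 nKO and 719, 816 and 849 in Kansl3 nKO. The Kansl3 nKO libraries lay below the controls, and the other groups overlapped them. The log2 change was -0.26 ± 0.08 (adjusted p = 0.0145) in Kansl3 nKO, against 0.09 ± 0.07 (adjusted p = 0.3) in Mof nKO and -0.03 ± 0.09 (adjusted p = 0.84) in Kansl2 nKO. The Kansl3 nKO call did not hold without library Cre184 (adjusted p = 0.0522), library Cre188 (0.0781) or library K3_349 (0.0699). Under total-count scaling it was -0.12 (adjusted p = 0.357), and the Mof nKO value turned to -0.19 (adjusted p = 0.394).

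In whole brain Wnt7a also fell in Kansl2 and Kansl3 nKO, while its value in Mof nKO, past the threshold in neural cells, did not pass. It stood at 23.7, 19.96 and 17.9 TMM-scaled CPM in Cre, 15.4, 19.8 and 16.5 in Mof nKO, 15.3, 12.5 and 11.5 in Kansl2 nKO and 15.2, 12.4 and 10.04 in Kansl3 nKO. Kansl2 and Kansl3 nKO brains lay below every control and the Mof nKO brains overlapped them. The log2 change was -0.63 ± 0.16 (adjusted p = 0.0103, edgeR) in Kansl2 nKO and -0.69 ± 0.16 (adjusted p = 0.00566) in Kansl3 nKO, against -0.26 ± 0.16 (adjusted p = 0.325) in Mof nKO. The Kansl3 nKO call held without each library, and the Kansl2 nKO call was lost without library Cre_16 (log2 -0.51, adjusted p = 0.0704). Wnt7b stood at 71.8, 77.1 and 60.8 CPM in Cre brains, 34.04, 70.4 and 68.7 in Mof nKO, 68.2, 44.5 and 65.3 in Kansl2 nKO and 45.4, 39.1 and 49.4 in Kansl3 nKO. All Kansl3 nKO brains lay below the controls, and 1 Mof nKO brain and 1 Kansl2 nKO brain stood as low. Wnt7b changed by -0.63 ± 0.22 (adjusted p = 0.0396) in Kansl3 nKO, -0.29 ± 0.22 (adjusted p = 0.44) in Mof nKO and -0.23 ± 0.22 (adjusted p = 0.463) in Kansl2 nKO. The Kansl3 nKO call passed only without library Cre_19 and was lost without any 1 of the other 5 libraries. The adjusted p then ran from 0.0632 without library K3_149 to 0.133 without library K3_119, at 0.0962 and 0.106 without libraries Cre_16 and Cre_18, and 0.0784 without library K3_117. In a bulk library, fewer cells of a type and less RNA per cell cannot be told apart. The 9 neural markers summed to 4416 to 5439 CPM in Cre brains and to 4278 to 5296, 4259 to 6011 and 3891 to 4494 CPM in Mof, Kansl2 and Kansl3 nKO brains, and the part of cell makeup in the ligand values was not tested.

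**Figure D2:**
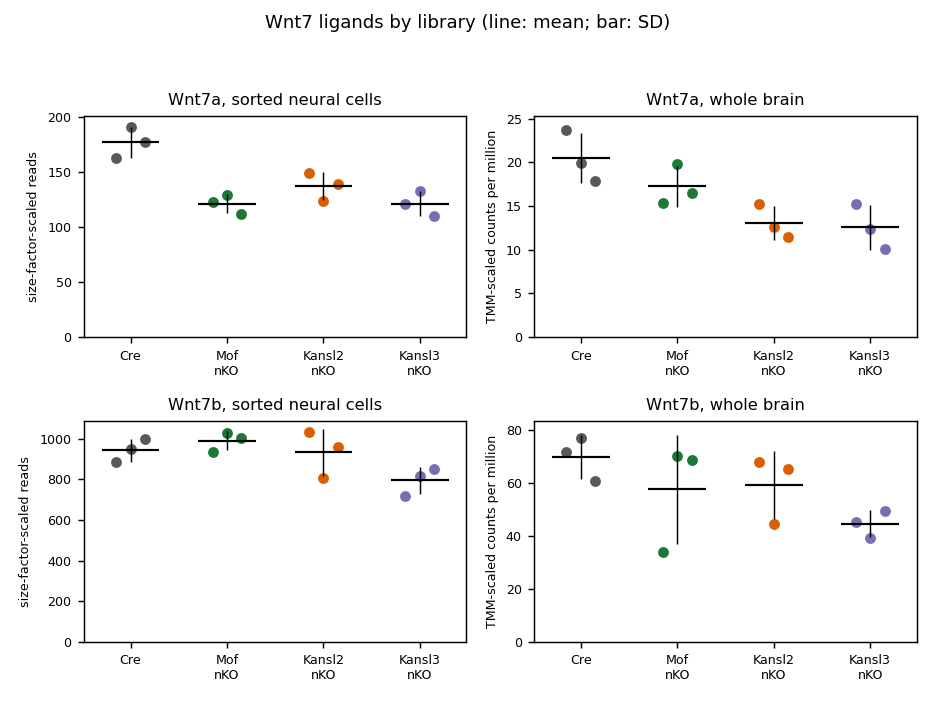
Wnt7a (top) and Wnt7b (bottom) in each library of sorted neural cells (left, size-factor-scaled reads) and whole brain (right, TMM-scaled CPM) by genotype, with mean and SD. All 9 neural knockout libraries lie below the 3 Cre libraries for Wnt7a (109.8 to 148.95 against 162 to 190.4).

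Of the 7 receptor and target genes in neural cells, 5 rose in Kansl3 nKO, the other way from Wnt7a. Of the 9 genes, 5 rose and 2 fell in Kansl3 nKO, where 55.2% of all genes tested passed. In Kansl2 nKO 3 rose and 1 fell (42.2% of all genes), and 0 rose and 2 fell in Mof nKO (36.5%). The median log2 change of the 9 was 0.30, 0.13 and 0.01 in Kansl3, Kansl2 and Mof nKO, beside 0.01, 0.01 and -0.00375 over all genes tested. Calls were thus common among all genes, and a count of members called is read against that background. Over all genes, 3842 rose and 4181 fell in Kansl3 nKO, 2796 and 3068 in Kansl2 nKO, and 2665 and 2346 in Mof nKO. Under total-count scaling, an alternative chosen after seeing the data, these became 4786 and 2873, 246 and 2621, and 178 and 3698, with the median of all genes at 0.14, -0.17 and -0.28.

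Among the receptors, Fzd4, a Frizzled of brain endothelium that also binds Norrin, stood at 34.05, 27.7 and 27.2 scaled reads in Cre neural libraries and at 51.5, 61.9 and 42.9 in Kansl3 nKO, with no overlap (log2 0.78 ± 0.20, adjusted p = 0.00438). Lrp5, a single-pass co-receptor, stood at 209, 198 and 231 in Cre and at 274, 284 and 277 in Kansl3 nKO, again with no overlap (0.38 ± 0.10, adjusted p = 0.00314). Both calls held without each library in turn. Reck stood at 88.1, 88.3 and 82.6 scaled reads in Cre and at 59.97, 63.02 and 54.2 in Mof nKO, all lower. Its log2 change of -0.52 ± 0.16 (adjusted p = 0.0169) in Mof nKO was lost without library Cre184 (adjusted p = 0.0637) or library Cre183 (0.0537). Fzd4 rested on few reads, 26 to 46 per Cre library and 52 to 85 per Kansl3 nKO library.

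Lef1, the DNA-binding partner of beta-catenin, had the largest change of the 9 in neural cells. It stood at 138, 137 and 130.2 scaled reads in Cre, 126, 108 and 178 in Mof nKO, 155, 164 and 209 in Kansl2 nKO and 311, 245 and 225 in Kansl3 nKO. The Kansl2 and Kansl3 nKO libraries lay above every control and those of Mof nKO lay on both sides. The change was 0.92 ± 0.12 (adjusted p = 1.68e-05) in Kansl3 nKO, between 0.79 and 1.01 without each library in turn. It was 0.36 ± 0.13 (adjusted p = 0.0381) in Kansl2 nKO. That call was lost without library Cre183 (adjusted p = 0.0703), Cre184 (0.0855) or Cre188 (0.117) or library K2_351 (log2 0.23, adjusted p = 0.151), and the value was 0.18 under total-count scaling (adjusted p = 0.667).

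Nkd1, which binds Dishevelled and damps the signal, stood at 248, 267 and 237 scaled reads in Cre, 324, 274 and 272 in Mof nKO, 350.0, 259 and 337 in Kansl2 nKO and 379, 352 and 378 in Kansl3 nKO. Mof and Kansl3 nKO libraries lay above all controls, and 1 Kansl2 nKO library lay within them. It rose by 0.55 ± 0.09 in Kansl3 nKO (adjusted p = 9.08e-05) and by 0.32 ± 0.12 in Kansl2 nKO (adjusted p = 0.04). Its value of 0.23 ± 0.10 in Mof nKO did not pass (adjusted p = 0.0731; -0.05 under total-count scaling). The Kansl2 nKO call passed without library K2_348 and in no other omission. The adjusted p was 0.0896, 0.0569 and 0.139 without libraries Cre183, Cre184 and Cre188, and 0.159 and 0.103 without libraries K2_345 and K2_351. The value was 0.13 under total-count scaling (adjusted p = 0.754). The Mof nKO value passed without library M689 (0.27, adjusted p = 0.0433).

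Axin2 stood at 426, 429.8 and 383 scaled reads in Cre, 426, 387 and 436.05 in Mof nKO, 534, 441 and 487 in Kansl2 nKO and 535, 489 and 506 in Kansl3 nKO. It rose by 0.30 ± 0.08 in Kansl3 nKO (adjusted p = 0.00558), a call that held without each library. The Kansl2 nKO libraries also lay above the controls, at 0.23 ± 0.09 (adjusted p = 0.0552), a value that passed without library K2_348 (0.30, adjusted p = 0.0214). Under total-count scaling the Kansl2 nKO value was 0.05 (adjusted p = 0.914). Apcdd1, a membrane-bound inhibitor of Wnt signalling with a role in the retinal vascular barrier, stood at 646.2, 717 and 696 scaled reads in Cre and at 893, 882 and 864 in Kansl2 nKO, all higher. Apcdd1 rose by 0.36 ± 0.07 in Kansl2 nKO (adjusted p = 0.00138) and kept the call without each library, though not under total-count scaling (0.17, adjusted p = 0.635). In Kansl3 nKO it was at 742, 702 and 817, overlapping the controls. Erythroid markers summed to 1088 to 2101 CPM in Kansl3 nKO neural libraries and 468 to 673 CPM in Cre, and the 9 endothelial markers to 6.58 to 7.81 and 3.62 to 4.51 CPM, beside 5438 or more in sorted endothelial cells. Pericyte markers summed to 92.7 to 100.99 CPM in Kansl3 nKO and 47.5 to 72.2 CPM in Cre, choroid plexus markers to 98.8 to 105.7 and 56.3 to 86.3 CPM, and neural markers to 4804.5 to 5025 and 3983 to 4538 CPM. All 5 lists lay higher in Kansl3 nKO with no overlap, as choroid plexus markers did in Kansl2 nKO (89.7 to 110.1 CPM). In Mof nKO fibroblast markers lay lower than in Cre, at 2.210 to 4.44 against 6.88 to 8.13 CPM. These sums are plain CPM, and a smaller share of Rn18s-rs5 raises the CPM of all other genes, neural markers included. Rn18s-rs5 took 10.7% to 12.3% of reads in Kansl3 nKO and 15.4% to 28.7% in Cre. It took 20.5% to 39.3% in Mof nKO and 10.2% to 37.1% in Kansl2 nKO. The part of this share in the marker sums, and of the marked cells in the neural values, was not tested.

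**Figure D3:**
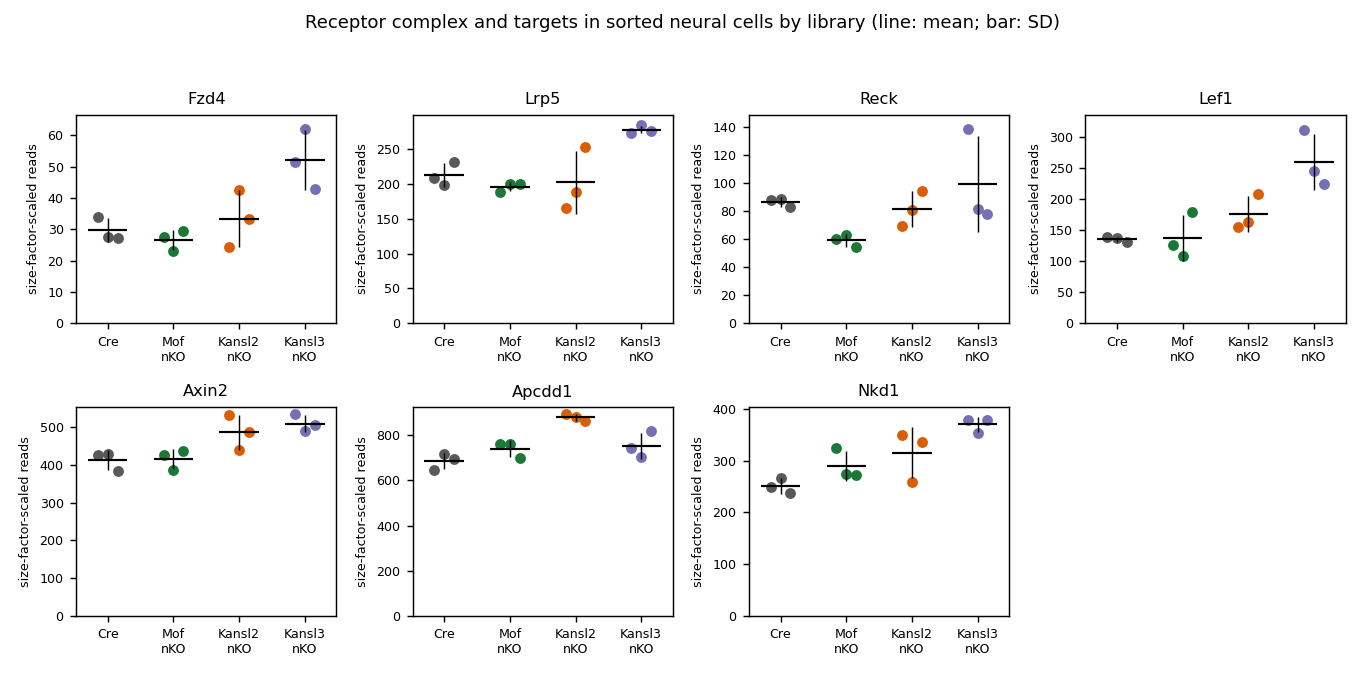
Receptor and target genes in each neural library by genotype (size-factor-scaled reads from 0, with mean and SD). Lef1 reaches 225 to 311 in Kansl3 nKO beside 130.2 to 138 in Cre, and Reck lies at 54.2 to 63.02 in Mof nKO beside 82.6 to 88.3 in Cre.

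The difference between knockouts was tested directly in neural cells. Mof against Kansl3 nKO differed in 7 of the 9 genes (43.4% of all genes tested passed, and 52.0% of these calls were higher in Mof nKO, or 3.78% under total-count scaling). Wnt7b was higher in Mof nKO by 0.32 (adjusted p = 0.00718). Lower in Mof nKO were Fzd4 (log2 -0.93, adjusted p = 0.00401), Lrp5 (-0.50, adjusted p = 0.00314), Reck (-0.69, adjusted p = 0.0067), Lef1 (-0.93, adjusted p = 0.000151), Axin2 (-0.29, adjusted p = 0.0118) and Nkd1 (-0.35, adjusted p = 0.0141). Wnt7a, at 0.00 ± 0.13 (adjusted p = 0.988), did not pass. Without library K3_349, 3 members passed. Axin2 (adjusted p = 0.058), Nkd1 (0.05), Reck (0.079) and Wnt7b (0.0512) were lost, and Axin2 (0.069) and Nkd1 (0.0622) were also lost without library M646. Under total-count scaling the Wnt7b difference turned to -0.07 (adjusted p = 0.794).
Kansl2 against Kansl3 nKO differed in 3 of the 9 (26.0% of all genes passed, and 55.0% of these calls were higher in Kansl2 nKO, or 1.35% under total-count scaling). Lrp5 (-0.48, adjusted p = 0.0087) and Lef1 (-0.56, adjusted p = 0.0159) were lower in Kansl2 nKO and Apcdd1 was higher (0.23, adjusted p = 0.0346). None of the 3 passed without library K2_345 (adjusted p = 0.0623, 0.0783 and 0.0923). Lef1 was also lost without library K2_348 (0.0629) or library K3_349 (0.111), and Apcdd1 without library K2_348 (0.0845) or libraries K3_349 (0.113) or K3_356 (0.174), turning to -0.09 under total-count scaling.
Mof against Kansl2 nKO differed in 1 of the 9 (9.15% of all genes passed, and 53.9% of these calls were higher in Mof nKO, or 27.3% under total-count scaling). That gene was Apcdd1 at -0.25 (adjusted p = 0.0456). The call was lost without any 1 of the 6 libraries. The adjusted p was 0.0546 without library K2_351, 0.0841, 0.0921 and 0.142 without libraries M643, M646 and M689, and 0.101 and 0.108 without libraries K2_345 and K2_348.

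Beyond the 9, other genes of the pathway were called in both directions in neural cells. Of all genes tested, 55.2%, 42.2% and 36.5% passed in Kansl3, Kansl2 and Mof nKO. The counts of list genes below are read against those shares, and no list was tested as a set. Of the other ligands and the proteins that release them, 7 of 13 tested rose and 1 fell in Kansl3 nKO (median log2 0.83). In Kansl2 nKO 4 of 11 rose and 1 fell (0.47), and 1 of 11 rose and 1 fell in Mof nKO (0.18), beside medians of all genes within 0.01 of 0. Porcn, which adds the lipid that Wnt proteins need for secretion, fell in each (-0.95 ± 0.14, adjusted p = 4.19e-05, in Kansl3 nKO; -0.85 ± 0.12, adjusted p = 6.34e-05, in Kansl2 nKO; -0.47 ± 0.11, adjusted p = 0.00224, in Mof nKO). Wls, the carrier that brings Wnts to the cell surface, rose in Kansl3 nKO (0.73) and Kansl2 nKO (0.59), and Rspo3, a secreted enhancer of the signal, rose in all (0.84, 0.68 and 0.77). Of the other receptors, 4 of 13 rose and 1 fell in Kansl3 nKO, with Lrp6, the close relative of Lrp5, at 0.69 and Fzd2 at -0.39. In Kansl2 nKO 6 of 13 rose and 1 fell, and 6 of 12 rose in Mof nKO with Fzd2 at 0.44. Among proteins that carry the signal, 7 of 16 rose and 3 fell in Kansl3 nKO, among them Tcf7l2, a relative of Lef1 (0.95), and Gsk3b, the kinase that marks beta-catenin for destruction (0.96). Of these genes 4 of 15 rose and 1 fell in Kansl2 nKO and 5 of 15 rose and 1 fell in Mof nKO. Of the other feedback genes, 5 of 13 rose and 1 fell in Kansl3 nKO, with Znrf3, a ligase that removes Frizzleds, at 1.04 (0.69 in Kansl2 nKO), and 4 of 12 rose in each of the other knockouts.

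In whole brain, few receptors or targets passed. None of the 9 genes passed in Mof nKO (edgeR, 5.97% of all genes; 1 of 9 at an unadjusted p under 0.05, and 0 with DESeq2). Of all calls there, 32.3% were higher in Mof nKO, or 14.4% under total-count scaling. Only Wnt7a passed in Kansl2 nKO (26.6% of all genes) and 4 passed in Kansl3 nKO (34.0% of all genes). In Kansl3 nKO both ligands and Apcdd1 fell and Reck rose. Reck stood at 15.5, 13.6 and 19.3 CPM in Cre and at 20.8, 24.95 and 22.01 in Kansl3 nKO, all higher (0.50 ± 0.18, adjusted p = 0.0398). Apcdd1 stood at 66.01, 68.8 and 63.7 in Cre and at 51.03, 44.5 and 48.2 in Kansl3 nKO, all lower (-0.45 ± 0.14, adjusted p = 0.0269). Both were lost without library Cre_16 or Cre_18 or library K3_119 or K3_149 (adjusted p = 0.103, 0.178, 0.121 and 0.0848 for Reck and 0.0646, 0.0627, 0.0952 and 0.0696 for Apcdd1). Lef1 was at 27.7 to 41.0 CPM in Cre and 36.4 to 50.7 CPM in Kansl3 nKO, and Axin2 at 42.7 to 50.5 and 39.8 to 45.6, both overlapping. Nkd1, which rose in Kansl3 nKO neural cells, was at -0.19 ± 0.12 (adjusted p = 0.226) in whole brain. Against each other, Mof and Kansl3 nKO brains differed in Reck alone of the 9 (-0.66 ± 0.18, adjusted p = 0.0271; 13.5% of all genes). The call was lost without library K3_119 (0.0924) or K3_149 (0.0776) or library Mof_197 (0.0737) or Mof_200 (0.0918). None of the 9 passed between Mof and Kansl2 nKO (edgeR, 8.65% of all genes; 3 of 9 at an unadjusted p under 0.05, 0 with DESeq2). None passed between Kansl2 and Kansl3 nKO (edgeR, 0.0368% of all genes; 2 of 9 at an unadjusted p under 0.05, 0 with DESeq2).
Higher in Mof nKO were 55.1% of calls between Mof and Kansl3 nKO and 53.8% between Mof and Kansl2 nKO, or 42.4% and 35.5% under total-count scaling, and 2 of 6 calls between Kansl2 and Kansl3 nKO were higher in Kansl2 nKO, or 1 of 7.
Of the wider lists, Porcn fell (-0.65 ± 0.16, adjusted p = 0.00664) and Adgra2, the partner of Reck, rose (0.82 ± 0.19, adjusted p = 0.00575) in Kansl2 nKO brains. In Kansl3 nKO brains 4 of 15 other receptors fell and 1 rose, with Fzd9 at -0.79 and Fzd10 at -0.91. There 5 of 16 signal carriers fell and 0 rose, and Nkd2, a relative of Nkd1, rose (0.85 ± 0.13, adjusted p = 0.000377). No gene of the 5 wider lists passed in Mof nKO brains. Library K2_63 held 361 CPM of choroid plexus markers and 215 CPM of fibroblast markers, against at most 48.9 and 26.2 in Cre, and 1 Kansl3 nKO library held 122.5 CPM of fibroblast markers. The 9 microglia markers summed to 34.9 to 37.7 CPM in Cre, 47.7 to 61.8 in Mof nKO, 86.2 to 138.6 in Kansl2 nKO and 108.8 to 119.8 in Kansl3 nKO. The 8 erythroid markers summed to 373 to 429 CPM in Cre, 444 to 1063 in Mof nKO, 597 to 1620 in Kansl2 nKO and 604 to 1584 in Kansl3 nKO. Both lists lay above the controls in all 9 knockout brains, and the part of these cells in the whole-brain values was not tested.

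In endothelial cells no gene of the 9 passed in any knockout, nor did any other gene. With limma, 0% of all genes tested passed in Mof, Kansl2 and Kansl3 nKO, with 1482, 975 and 1055 genes at an unadjusted p under 0.05, and edgeR on recovered reads called 0 in each. Of the 8 members tested, 1 (Wnt7b) had an unadjusted p under 0.05 in each knockout; Wnt7a was under the minimum for testing. Their median log2 change was -0.22, -0.33 and -0.07 beside 0.09, 0.06 and 0.03 over all genes.
Library Cre130 held 7.69% mitochondrial reads, beside 1.11% to 2.175% in the other endothelial Cre libraries. Among the Cre libraries it had the highest value of Lef1, Axin2, Reck and Wnt7b and the lowest of Fzd4, Apcdd1 and Nkd1. Lef1 stood at 6609, 5357, 4235 and 3694 scaled reads in Cre, 4272, 4384, 3427 and 4352 in Mof nKO, 3581, 3419.7 and 3491 in Kansl2 nKO and 4283, 4248 and 4007 in Kansl3 nKO. The Kansl2 nKO libraries lay just below the lowest control and the others overlapped. The change of Lef1 was -0.24 ± 0.20 (adjusted p = 0.728), -0.47 ± 0.25 (adjusted p = 0.874) and -0.21 ± 0.21 (adjusted p = 0.86) in Mof, Kansl2 and Kansl3 nKO. Nkd1 stood at 3799, 6248, 5731 and 4618 in Cre, 2474, 3980.2, 4320.1 and 4294 in Mof nKO, 4370.3, 2450.5 and 3945 in Kansl2 nKO and 4859, 4237 and 3154 in Kansl3 nKO. Its values were -0.44 ± 0.23, -0.52 ± 0.28 and -0.31 ± 0.22 (adjusted p = 0.609, 0.874 and 0.828), with overlap in every knockout.
Apcdd1 spread widely, from 8501 to 14393 in Cre, 6849.9 to 12681 in Mof nKO, 3281 to 13844 in Kansl2 nKO and 10043 to 16065 in Kansl3 nKO (-0.19 ± 0.23, -0.70 ± 0.41 and 0.17 ± 0.22). Axin2 was at 88.0 to 170.2 in Cre, 153 to 244 in Mof nKO, 61.98 to 235 in Kansl2 nKO and 95.7 to 130.3 in Kansl3 nKO (0.58 ± 0.48, -0.06 ± 0.68 and -0.08 ± 0.56). None of these 4 genes at the end of the pathway was called in either direction, and the SEs were smallest for Lef1, Nkd1 and Apcdd1 and largest for Axin2.
For the receptors, Fzd4 was at 639, 1261, 1553 and 1247 in Cre and between 721 and 1754 in the knockouts, with overlap throughout (0.28 ± 0.30, 0.19 ± 0.40 and 0.30 ± 0.31). Lrp5 was at 69.7, 298, 87.0 and 65.2 in Cre and between 93.5 and 284 in the knockouts. All 10 knockout libraries lay above 3 of the 4 controls and below the other (0.97 ± 0.61, 0.92 ± 0.69 and 0.62 ± 0.71). Reck was at 1110.2, 211, 217 and 145 in Cre, 192.95, 3.91, 126 and 175 in Mof nKO, 278, 244 and 254 in Kansl2 nKO and 262, 180 and 466 in Kansl3 nKO. In the Mof nKO library at 3.91 Reck rested on 4 reads, and in library Cre130 on 796. Its values were -2.11 ± 1.12 (adjusted p = 0.618), -0.18 ± 0.65 and -0.06 ± 0.68, and without library Cre130 the last 2 turned to 0.46 and 0.58.
Wnt7b transcripts were also present in endothelial libraries, at 568, 100.5, 44.5 and 244 scaled reads in Cre, 0, 0, 0 and 4.03 in Mof nKO, 0, 73.9 and 0 in Kansl2 nKO and 59.3, 0 and 0 in Kansl3 nKO. All 4 controls had Wnt7b reads and 7 of 10 knockout libraries had none. The log2 changes of -6.76 ± 1.2 (adjusted p = 0.261), -5.23 ± 1.6 (adjusted p = 0.782) and -5.37 ± 1.6 (adjusted p = 0.649) did not pass and rest on the pseudocount of 1 that stands in for the zeros. In these libraries the 9 neural markers summed to 429 to 531 CPM in Cre, 279 to 462 in Mof nKO, 256 to 594 in Kansl2 nKO and 201 to 295 in Kansl3 nKO. The 9 pericyte markers summed to 342 to 422, 118.5 to 377, 56.1 to 190.3 and 189 to 251 CPM. Their part in the Wnt7b values was not tested.
The 10 barrier genes under endothelial beta-catenin include the glucose transporter Slc2a1, the junction protein Cldn5 and Plvap. They summed to 7454 to 12770 CPM in Cre, 8181 to 10789 in Mof nKO, 6586 to 10036 in Kansl2 nKO and 9610.2 to 10103 in Kansl3 nKO, overlapping in each group. A sum or median over the list can hide changes of single genes in opposite directions. None of the 10 passed, and their median log2 change was -0.26, -0.37 and -0.20. No gene of the other 4 lists passed either.

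**Figure D4:**
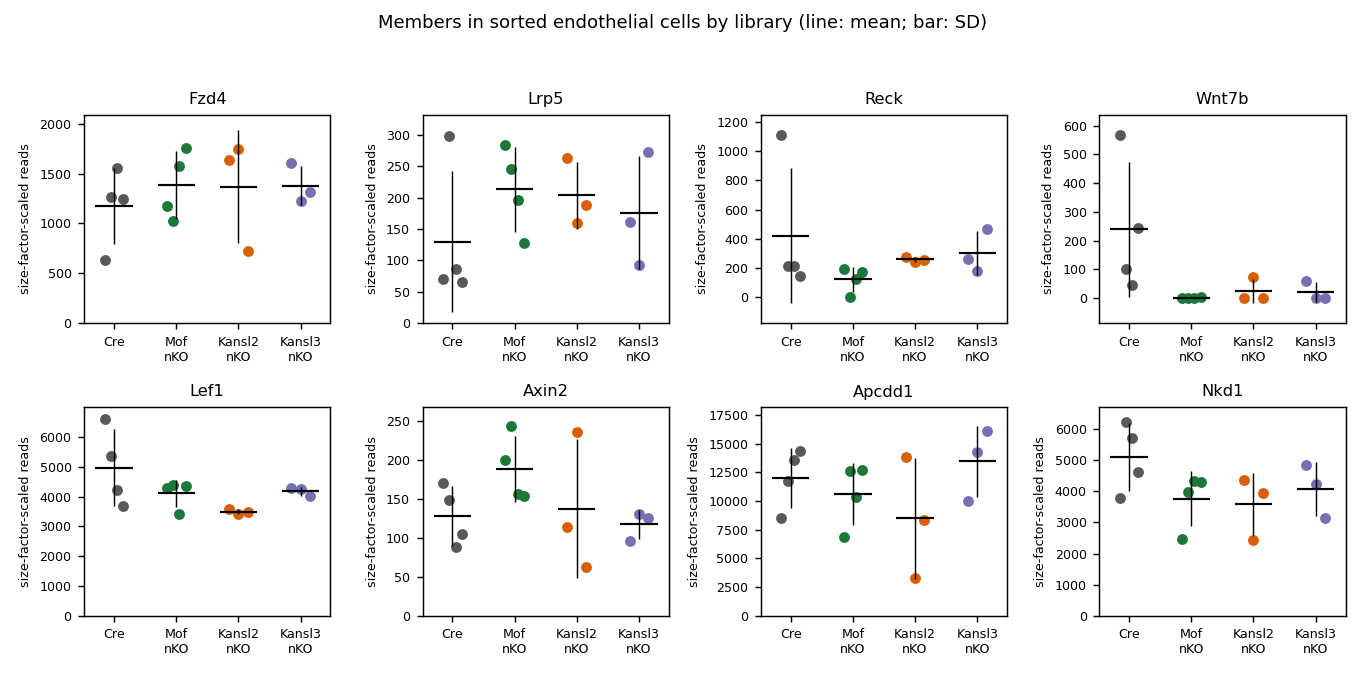
Members in each endothelial library by genotype (size-factor-scaled reads, with mean and SD; SD bars that reach below 0 are drawn in full). Knockout libraries overlap the Cre libraries for most genes, the Lef1 libraries of Kansl2 nKO lie at 3419.7 to 3581 beside 3694 to 6609 in Cre, and Wnt7b is at 0 in 7 of 10 knockout libraries.

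In sorted pericytes Axin2 was lower in all 10 knockout libraries than in all 4 controls. It stood at 336, 314, 269.8 and 376 scaled reads in Cre, 192, 196 and 237 in Mof nKO, 244, 189.9 and 234 in Kansl2 nKO and 206, 193.2, 146 and 192 in Kansl3 nKO. The knockouts share these 4 controls, and how many of all genes separate in this way was not counted. The Axin2 change passed in Kansl3 nKO (-0.81 ± 0.19, adjusted p = 0.0314) and not in Mof nKO (-0.64 ± 0.21, adjusted p = 0.247) or Kansl2 nKO (-0.56 ± 0.19, adjusted p = 0.145). The Kansl3 nKO call was lost without library Cre_134 (adjusted p = 0.0987), Cre_139 (0.0866) or Cre_142 (0.106) or library K3_335 (0.0512) or K3_339 (0.0584), with the change between -0.90 and -0.71 over all omissions. Axin2 was the one member of 9 that passed in Kansl3 nKO (3.11% of all genes; 60.3% of calls higher, or 47.5% under total-count scaling).
Lef1, in contrast to Axin2, stood at 178, 164, 156 and 193.03 in Cre, 228, 295 and 156 in Mof nKO, 184.4, 105 and 182.5 in Kansl2 nKO and 252, 199.9, 197.5 and 235 in Kansl3 nKO. The Kansl3 nKO libraries lay above the controls, and the changes of 0.34 ± 0.26, -0.20 ± 0.25 and 0.35 ± 0.19 did not pass (adjusted p = 0.591, 0.701 and 0.333).
Wnt7a reads in pericyte libraries stood at 25.02, 36.3, 41.4 and 47.6 in Cre, 49.1, 14.53 and 16.6 in Mof nKO, 1.52, 6.58 and 2.34 in Kansl2 nKO and 21.3, 29.9, 56.7 and 30.3 in Kansl3 nKO. The scaled values of the Kansl2 nKO libraries lay below all others and rested on 1 to 7 unscaled reads each, and the lowest Mof nKO library rested on 6. The change was -3.29 ± 0.68 (adjusted p = 0.0218) in Kansl2 nKO, the one member of 9 that passed there (2.208% of all genes; 43.1% of calls higher, or 32.0% under total-count scaling). It was lost without library Cre_134 (adjusted p = 0.0566), Cre_139 (0.0681), Cre_141 (0.0836) or Cre_142 (0.0995). Wnt7b was at 67.7 to 195 scaled reads in Cre and at 88.4, 40.4 and 37.4 in Kansl2 nKO (-1.35 ± 0.40, adjusted p = 0.0966), a value that passed without library K2_328 (-1.74, adjusted p = 0.0334). The 9 neural markers in these libraries summed to 517 to 798 CPM in Cre, 394 to 470 in Kansl2 nKO, 571.7 to 995 in Kansl3 nKO and 851 to 1052 in Mof nKO. By median, neural markers were lowest in Kansl2 nKO, where the means of both ligands were lowest, and highest in Mof nKO (1032 CPM). In Mof nKO the mean of Wnt7b was the highest (199 scaled reads), and that of Wnt7a (26.7) was lower than in Cre (37.6). The part of neural cells in the ligand values was not tested.
No member passed in Mof nKO (limma, 0% of all genes, 1888 genes at an unadjusted p under 0.05; edgeR on recovered reads called 9 genes, none of them a member). Axin2 and Apcdd1 had an unadjusted p under 0.05, and Apcdd1 stood at 71.4, 53.3 and 109.2 in Mof nKO and at 121 to 187 in Cre (-1.07 ± 0.32, adjusted p = 0.22). Pericyte markers were lower in Mof nKO, at 5665 to 7921 CPM, than in Cre, and those of Kansl2 nKO (10276 to 11068) and Kansl3 nKO (9247.5 to 13695) were closer to it. Fibroblast markers summed to 357 to 489 CPM in Kansl3 nKO, below the 513 to 1001 CPM of Cre with no overlap, and to 212 to 542 in Mof nKO and 811 to 993 in Kansl2 nKO. The part of these cells in the Axin2 values was not tested. Lrp5 stood at 76.8, 85.8, 80.6 and 91.2 in Cre and at 8.53, 62.6, 31.6 and 23.5 in Kansl3 nKO, all lower (-1.69 ± 0.49, adjusted p = 0.077; -2.11, adjusted p = 0.028, without library K3_333).
Outside the 9, Rspo3 (-1.23 ± 0.22, adjusted p = 0.0106) and Dkk3, a secreted relative of Wnt inhibitors (-0.92 ± 0.22, adjusted p = 0.0444), fell in Kansl2 nKO pericytes. In Kansl3 nKO, Rspo2 (1.41), the Fzd4 partner Tspan12 (0.83) and Dkk3 (1.03) rose and the kinase gene Gsk3a fell (-1.22 ± 0.24, adjusted p = 0.0152). These were the list genes that passed, 2 in Kansl2 nKO, 4 in Kansl3 nKO and 0 in Mof nKO.

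In microglia none of the 5 members tested passed (limma, 0% of all genes, 1341 genes at an unadjusted p under 0.05; edgeR on recovered reads called 0). Lrp5 stood at 155, 138 and 93.97 scaled reads in Cre and at 9.87, 8.53 and 3.28 in Mof nKO, all lower (-4.06 ± 1.1, adjusted p = 0.219). Library M689 alone held 313 reads of Wnt7a and 380 of Wnt7b, with 0 of either in the other 2 of its group. The 9 microglia markers summed to 9785 to 12703 CPM in Cre and 2665 to 6007 CPM in Mof nKO, and the part of this difference in the Lrp5 values was not tested.

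In cultured pericytes the fatty acid mixture moved 4 of the 7 members tested, in a comparison where 66.6% of all genes passed (edgeR). Of these calls 48.5% were higher, or 37.3% under total-count scaling, which moved the median of all genes from -0.04 to -0.22. Axin2 stood at 3.64, 4.69 and 3.96 TMM-scaled CPM with vehicle and at 0.508, 0.492 and 0.584 with fatty acids (-2.92 ± 0.18, adjusted p = 1.16e-05). Reck fell from 24.4, 25.3 and 24.8 to 5.72, 8.50 and 8.42 (-1.69 ± 0.16, adjusted p = 6.79e-05), and Fzd4 from 10.8, 11.3 and 12.05 to 6.60, 5.63 and 3.66 (-1.08 ± 0.20, adjusted p = 0.00224). Groups did not overlap for any of these, and the calls held without each library. Apcdd1 rose from 3.95, 3.69 and 3.46 to 6.93, 5.43 and 4.54 (0.63 ± 0.17, adjusted p = 0.0136), a call lost without vehicle library 2 (adjusted p = 0.0503) or 3 (0.0589). Lrp5 was at 105, 109.4 and 111 with vehicle and 103, 89.6 and 80.7 with fatty acids (-0.23 ± 0.09, adjusted p = 0.0599), and passed without fatty acid library 1 (-0.31, adjusted p = 0.00163) and under total-count scaling (-0.42, adjusted p = 0.00217). Nkd1 did not pass (-0.29 ± 0.25, adjusted p = 0.339), and Wnt7a and Lef1 had at most 15 reads in any culture library and were not tested. The median log2 change of the 7 was -0.29, beside -0.04 over all genes.
Both groups in culture had few pericyte markers: the 9 summed to 207 to 220 CPM with vehicle and 32.1 to 37.4 with fatty acids, beside 10461 or more in sorted Cre pericytes, and Higd1b and Kcnj8 had no reads with vehicle. Fibroblast markers fell alongside, from between 621.2 and 625 CPM to between 134.4 and 153 CPM, and their part in the member changes was not tested. Of the wider lists, 6 of 9 other ligands fell (Rspo2 at -2.25, Rspo3 at -1.50 and Wnt5a at -1.07) and 0 rose. Of the other receptors 9 of 14 fell and 3 rose. Of the feedback genes 7 of 13 fell and 1 rose (Dkk3 at -2.56 and Notum, an enzyme that inactivates Wnts, at -2.04). Of the barrier genes 5 of 6 rose and 1 fell (Slc2a1 and the amino acid transporter Slc7a5, both at 1.75).

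**Figure D5:**
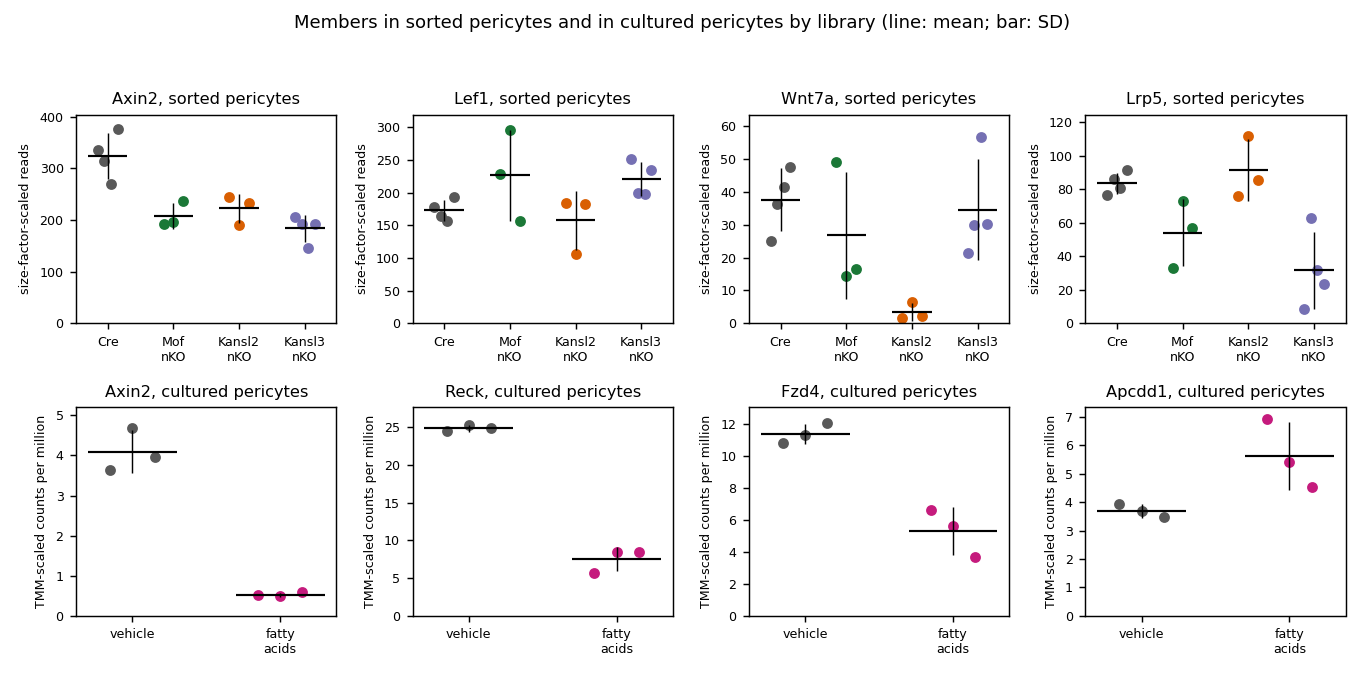
Axin2, Lef1, Wnt7a and Lrp5 in each sorted pericyte library (top, size-factor-scaled reads) and Axin2, Reck, Fzd4 and Apcdd1 in each cultured pericyte library (bottom, TMM-scaled CPM), with mean and SD. Axin2 lies at 146 to 244 in the 10 sorted knockout libraries beside 269.8 to 376 in Cre, and at 0.492 to 0.584 with fatty acids beside 3.64 to 4.69 with vehicle.

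Over the 12 whole-brain libraries, the 2 genes whose log2 CPM followed Wnt7a most closely among 12015 genes were Caskin2 (Pearson r = 0.966) and Fanci (0.964), and those nearest Wnt7b were Lix1 (0.948), 4833439L19Rik (0.923) and Ncbp2 (0.916). The 2 ligands followed each other at r = 0.61, and Wnt7b followed Apcdd1 at 0.73. Over the 14 endothelial libraries and 12409 genes, Lef1 was nearest to Gm43352 (0.943), Slc22a17 (0.836) and Mark2 (0.820), and Axin2 to Lrrtm2 (0.828), Dnah14 and Rec114 (both 0.814). Lef1 and Axin2 followed each other at only 0.13 there, and Lef1 and Nkd1 at 0.30. These values describe libraries that share groups and depth, and whether Gm43352 and Lef1 share reads was not tested.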

How the data were processed

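Gene counts per library for whole brain and cultured pericytes were deposited by the authors as raw read counts. For each sorted population and knockout, the authors deposited a table of read counts divided by DESeq2 size factors, a per-gene signal from which whole reads were recovered within 0.01 read in all 68 columns. The deposited log2 fold changes and p-values of the authors' own comparisons were read for gene symbols only. Per the submitters' processing notes STAR, featureCounts, DESeq2 and mm10 were used, with versions not given in the sources used here. Per the labels' protocols, whole-brain, neural and cultured-cell libraries were made with TruSeq, and SMART-Seq v4 with Nextera XT was used for sorted endothelial cells, pericytes and microglia.

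Whole brain (all 12 libraries in 1 fit) and culture were tested with edgeR's quasi-likelihood test on TMM-scaled counts after filterByExpr. Sorted populations were tested with limma (trend) on log2(scaled value + 1) where the mean scaled value reached 10, each knockout against Cre on its deposited scale, and knockouts against each other on recovered reads rescaled over the 12 neural libraries. A call is a Benjamini-Hochberg adjusted p under 0.05 over all genes tested, and errors of changes are SEs. Fold changes of low genes are understated by the pseudocount of 1. Printed sorted values are on 1 scale per population. The markers and wider pathway lists, like the members, were chosen with earlier results of these data known. Genes named as changed from the wider lists were drawn from the up to 3 per list and comparison with the lowest adjusted p among those that passed. Not all of these are named, and barrier genes that passed are named only in culture.

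Alternatives were DESeq2, its size factors, other filters, pseudocounts of 0.5 and 5, edgeR on recovered reads (0 to 9 genes called where limma called 0), each library left out and, added after seeing the data, scaling by total counts. No 2 libraries of a group agreed within sampling noise (lowest chi-square per gene 4.96 over 72 pairs). The endothelial column M436 was assigned to Mof nKO by its group, since no single title matches it, and 0 further columns were left out. The test scripts were tested on simulated data with known changes, whose spread was set and not taken from these libraries. One gene among those nearest Wnt7a is not reported here. Tools were R 4.3.3, edgeR 4.0.16, limma 3.58.1, DESeq2 1.42.0, Python 3.11.15, pandas 2.3.3, numpy 2.4.6 and matplotlib 3.10.9.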

Additional observations from a re-analysis of the deposited data

Results flagged for a closer look

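In 35 sets, each 1 gene in 1 group of 4 libraries, 6 held 1 library far from the other 3. The cut-off is meant to flag about 5% of independent sets by chance. These sets share libraries and some hold mostly zeros, so that rate does not tell how many to expect here. Wnt7a stood at 68.75 scaled reads in endothelial library M292 and at 0 in the other 3 Mof nKO libraries. Wnt7b stood at 4.032 in the endothelial Mof nKO library whose column is named M436 and at 0 in the others. Lrp5 stood at 298 in endothelial library Cre89 beside 65.2 to 87.0, and Reck at 1110 in endothelial library Cre130 beside 144.9 to 216.5. Lef1 stood at 3427 in endothelial library M430 beside 4272 to 4384, and Reck at 57.58 in pericyte library K3_333 beside 20.5 to 24.001.

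For some genes every library of a knockout lay on one side of the controls in one population and on the other side in another. Axin2 was higher in neural cells and lower in sorted pericytes in Kansl2 nKO (log2 0.23 and -0.56) and Kansl3 nKO (0.30 and -0.81). Lef1 in Kansl2 nKO was at 0.36 in neural cells and -0.47 in endothelial cells, and Lrp5 in Kansl3 nKO at 0.38 in neural cells and -1.69 in sorted pericytes. Nkd1 was at 0.55 in neural cells and -0.19 in whole brain in Kansl3 nKO, and at 0.23 and -0.27 in Mof nKO. How many of all genes separate in this way was not counted. Under total-count scaling the neural values in Kansl2 nKO were 0.05 for Axin2 and 0.18 for Lef1, and Nkd1 in Mof nKO was at -0.05. Those in Kansl3 nKO were 0.44 for Axin2, 0.52 for Lrp5 and 0.69 for Nkd1. The difference between populations was not tested.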

How the results depend on the processing

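Of the single-gene values, 453 kept direction and side of the threshold when 1 library was left out, 66 were no longer past it, 5 came past it and 16 changed sign. Of the single-gene values recomputed, all 17 in whole brain and culture kept call and sign with DESeq2, with its size factors and with no filter on low counts, as did all 10 in fits of only the 2 groups compared and all 65 in sorted cells with pseudocounts of 0.5 and 5. Scaling by total counts, chosen after seeing the data, turned Wnt7b and Nkd1 in Mof nKO neural cells to -0.19 and -0.05, Wnt7b between Mof and Kansl3 nKO to -0.07 and Apcdd1 between Kansl2 and Kansl3 nKO to -0.09, and took the members passing in Kansl2 nKO neural cells from 4 to 0. Axin2 in Kansl2 nKO endothelial cells was 0.11 with edgeR on recovered reads. Members passing went from 0 to 1 between Kansl2 and Kansl3 nKO brains with no filter (Apcdd1, named after its values were seen), and from 1 to 0 between Mof and Kansl2 nKO neural cells with a mean of at least 1, edgeR or total-count scaling. The cause of these changes was not tested. Among the limits on depth are the few reads of Fzd4 in neural cells and of Wnt7a and Reck in single sorted libraries. Lrp5 rested on 10, 113, 29 and 24 reads in Kansl3 nKO pericytes and on 12, 6 and 1 in Mof nKO microglia. Axin2 rested on 22, 22 and 26 reads in the fatty acid libraries, and Apcdd1 on 22 in pericyte library M_577.

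Leaving out 1 library at a time, the members passing ranged from 0 to 1 in Kansl2 nKO and 1 to 4 in Kansl3 nKO brains, 1 to 3, 1 to 4 and 6 to 7 in Mof, Kansl2 and Kansl3 nKO neural cells, 0 to 2 in Kansl2 and in Kansl3 nKO pericytes and 3 to 6 in culture. They ranged from 0 to 1, 0 to 2 and 0 to 1 between Mof and Kansl2, Mof and Kansl3, and Kansl2 and Kansl3 nKO brains, and from 0 to 1, 3 to 7 and 0 to 5 for those pairs in neural cells. None passed in any omission in Mof nKO brains, endothelial cells, Mof nKO pericytes or microglia. Values that changed sign were Wnt7b in Kansl2 nKO neural cells (-0.10 to 0.08), Apcdd1 in Mof nKO endothelial cells (-0.35 to 0.01), Axin2 (-0.55 to 0.39), Fzd4 (-0.08 to 0.59) and Reck (-0.52 to 0.46) in Kansl2 nKO endothelial cells, Axin2 (-0.24 to 0.07) and Reck (-0.43 to 0.58) in Kansl3 nKO endothelial cells, Lef1 in Kansl2 nKO pericytes (-0.34 to 0.06) and Wnt7a in Kansl3 nKO pericytes (-0.44 to 0.02).

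In culture, where vehicle and fatty acid libraries share replicate numbers, a replicate block left 4 members past the threshold, with Apcdd1 at 0.62 (adjusted p = 0.0115) and Lrp5 at -0.23 (adjusted p = 0.0731). Deviations of same-numbered libraries correlated at 0.2229, 0.1478 and 0.0477 over 15625 genes. Pairs with unlike numbers ran from -0.2882 to 0.1692, and vehicle 3 was nearest to fatty acid library 2 (0.1692). With 3 libraries per group, these values cannot tell whether a shared number marks a shared culture. No paired analysis was possible because, outside culture, no 2 groups set against each other share replicate numbers.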
